A study of Arabidopsis thaliana with 2 samples.

Results

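The 7 genes described here encode extensins: AT4G08410, HRGP1 (AT3G54590), AT1G23720, AT5G19810, AT5G26080, AT5G06630 and AT3G54580. They were taken by name from the gene table of the array's probe sets, and are 7 of 13356 genes with a named probe set. They were chosen by name with the trichome and pavement readings of these same arrays already seen, so their difference between the cell types is a description and carries no test. The study hybridised 2 Affymetrix arrays with RNA of Arabidopsis thaliana, genotype Columbia-0, and its labels name no other treatment. The first array held RNA from trichomes, which are leaf hairs of 1 cell each, and the second held RNA from pavement cells, the ordinary cells of the leaf epidermis. In both, cell sap was drawn with microcapillaries from leaves of 5-week-old plants and its RNA was amplified in a single round. The sources used here do not state how many cells and plants were sampled. Each cell type has 1 array, so no value has a replicate error and no p-value was computed.

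Extensins are structural glycoproteins of the plant cell wall, built from repeated runs of serine followed by prolines. The prolines are hydroxylated and carry short arabinose chains, and tyrosines between the runs let peroxidases cross-link the proteins into a network. In Arabidopsis several extensins are best known from root hairs, which, like trichomes, are hairs formed by a single epidermal cell. The annotation used here gives the 7 genes no separate roles, apart from the name hydroxyproline-rich glycoprotein for HRGP1.

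Values are log2 signals per probe set as deposited. A signal of 2.58 served as the background ceiling, because none of 27 probe sets for Bacillus transcripts, which plants lack, read higher. Of 22810 probe sets, 3169 lay above it in trichome and 4218 in pavement. Added hybridisation controls, 18 bacterial and phage probe sets, had medians of 8.50 in trichome and 11.7 in pavement, a median log2 difference of -3.15; the sources used here do not state the amounts added. Of 15 listed trichome regulators 4 were measured, and of these only SIM, which stops trichome cells from dividing, passed the ceiling in trichome (2.79, against 2.06 in pavement). CR4, a receptor kinase of epidermal cells, did not pass the ceiling in trichome (2.08) or in pavement (1.68). The trichome and pavement labels could therefore not be checked closely against markers. In cell sap, fewer cells and less RNA per cell cannot be told apart.

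All 7 extensins had a higher reading in trichome than in pavement, and all 7 trichome readings were above the ceiling. Of 8168 named genes whose higher reading reached the median of all readings, 2.05, 48.6% were likewise higher in trichome by any amount. AT4G08410 read 7.90 in trichome against 4.54 in pavement, so that trichome was 3.36 higher on the log2 scale (10.2-fold). HRGP1 read 6.27 in trichome against 4.35 in pavement and differed by 1.91 (3.77-fold). AT1G23720 read 9.26 in trichome against 7.85 in pavement and differed by 1.40 (2.65-fold). These extensins, with AT5G19810 and AT5G06630, had probe sets above the ceiling on both arrays, so that signal was read in both kinds of sap. For AT4G08410 a further probe set, also listed for AT4G08400, was at background in pavement (1.79).

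AT5G19810 read 4.27 in trichome against 2.83 in pavement and differed by 1.44 (2.70-fold), with the pavement reading only 0.25 above the ceiling. AT5G06630 read 4.73 in trichome against 3.92 in pavement and differed by 0.81 (1.75-fold), under 2-fold. The remaining members did not pass the ceiling in pavement, and a lower limit is all that is known of their folds. AT5G26080 read 3.44 in trichome against 2.06 in pavement, differed by 1.38, and was at least 1.81-fold higher in trichome. AT3G54580 read 2.65 in trichome, 0.07 above the ceiling, and 1.99 in pavement. It was at least 1.05-fold higher in trichome, which is close to no difference.

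**Figure D1:**
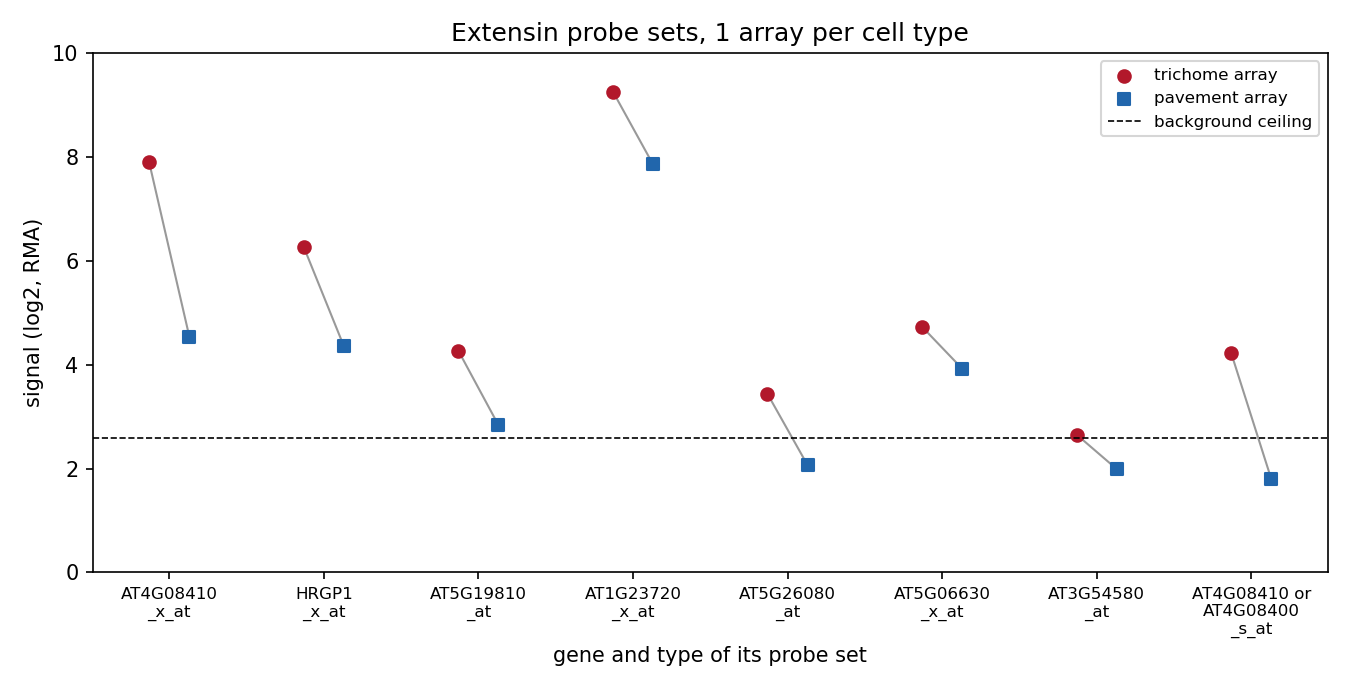
Signal of each extensin probe set (log2, vertical axis) on the trichome array (red circles) and the pavement array (blue squares), with the background ceiling of 2.58 as a dashed line; the last pair is a probe set listed for both AT4G08410 and AT4G08400, and each point is 1 array with no error. Every trichome point lies above its pavement point, and the pavement points of AT5G26080, AT3G54580 and the last probe set lie under the ceiling.

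In all, 5 of 7 members were at least 2-fold higher in trichome, and 0 of 7 in pavement. Of the 8168 genes, 97 (1.19%) were at least 2-fold higher in trichome and 679 (8.31%) in pavement. When every reading under the ceiling was set to it, 4 of 7 members passed 2-fold in trichome, namely AT4G08410, HRGP1, AT5G19810 and AT1G23720, beside 43 (0.526%) of the 8168 genes. In pavement 0 of 7 passed, beside 541 (6.62%) of the genes. Since the members were named with this contrast known, these shares set the scale and support nothing further. The median difference of the members was 1.40, and that of all named genes was 0.02. Among the 1139 genes above the ceiling on both arrays, 299 (26.3%) were higher in trichome by any amount, as were all 5 members measured there. In trichome 23 (2.02%) of these genes exceeded pavement by 2-fold or more, and 4 of those 23 were extensins of this group. In the order of deposited differences over the 8168 genes, from the most trichome-high down, AT4G08410 stood at place 5, HRGP1 at place 17, AT5G19810 at place 37, AT1G23720 at place 40 and AT5G06630 at place 183. AT5G26080 and AT3G54580 are given no place, because only a lower limit of their difference is known.

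The only measure of technical error in these data is how far probe sets of 1 gene differ, and the pooled SD of their differences was 0.95 over 36 genes with signal. A gap between the differences of a pair of genes then has an SD of 1.35. AT4G08410 exceeded HRGP1 by 1.44, a gap about as large as that SD. The places above are those of the deposited values, and this SD does not set neighbouring places apart. The deposited differences of AT5G06630 (0.81) and AT3G54580 (0.67) were under the SD of 0.95 between probe sets. That of AT5G26080 was also under it, at 0.86, once readings under the ceiling were set to it. Each member has 1 probe set of its own, and this SD leaves out sampling, amplification and plants.

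The kind of probe set differed among the members. AT4G08410, HRGP1, AT1G23720 and AT5G06630 were read by probe sets ending in _x_at, a name the array maker gives where some probes can also match other transcripts. Extensins share repeated sequence, so these 4 readings may hold signal of one another or of relatives, and how much was not tested. AT5G19810, AT5G26080 and AT3G54580 had probe sets ending in _at, with no such mark. The differences of the 4 shared probe sets lay between 0.81 and 3.36 (median 1.66), and those of the 3 unmarked ones between 0.67 and 1.44 (median 1.38). For the unmarked ones the median was 0.86 when readings under the ceiling were set to it. AT5G19810 is thus the member whose 2-fold difference stood above the ceiling on both arrays and came from an unmarked probe set. Outside the group, 6 other _x_at probe sets of a named gene gave signal on at least 1 array. Of these 0 exceeded 2-fold in trichome and 2 in pavement, and their median difference was -0.30. They do not measure cross-matching among extensins.

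A further probe set, ending in _s_at, was listed for both AT4G08410 and AT4G08400, another gene on the list of classical extensins. It read 4.22 in trichome and 1.79, at background, in pavement, so that it was at least 3.12-fold higher in trichome. It runs the same way as the _x_at probe set listed for AT4G08410, but at a lower level. The _x_at probe set read 7.90 in trichome and, above the ceiling, 4.54 in pavement. The signal of the _s_at probe set cannot be assigned to either gene, and why the levels differ was not tested.

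Some of these genes lie next to each other in the genome. AT3G54580 and HRGP1 are adjacent in the order of protein-coding genes of the RefSeq annotation, and their deposited differences were 0.67 and 1.91. AT3G54580 was at background in pavement, so its difference is only bounded and the gap to HRGP1 is at most 1.84. Whether the neighbours differ is not settled by that bound. AT4G08410 belongs to a run of extensin genes with AT4G08370, AT4G08380 and AT4G08400, and 1 protein-coding gene lies between AT4G08400 and AT4G08410. In this run AT4G08370 passed the ceiling neither in trichome (2.11) nor in pavement (1.71). AT4G08380 read 2.88 in trichome and 1.82 in pavement, at least 1.23-fold higher in trichome. The strong trichome signal of AT4G08410 was therefore not read at AT4G08370 or AT4G08380. AT5G06640, the neighbour of AT5G06630, had no named probe set in the table used here.

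The extensins were then set against genes of like signal, because the difference between the arrays changed with level. Mean level here is the mean of a gene's trichome and pavement log2 signals. Of the 31 named genes with a mean level from 6 to 7, 29 were at least 2-fold higher in pavement, and AT4G08410 was the only 1 with a higher reading in trichome. The median difference of these 31 genes was -4.59. Of the 11 named genes with a mean level from 8 to 9, 10 were at least 2-fold higher in pavement and AT1G23720 was the only 1 higher in trichome, beside a median of -4.08. AT1G23720, with a modest deposited difference, thus lay 5.49 above the median of its band.

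HRGP1 was 1 of 5 genes higher in trichome among 94 with a mean level from 5 to 6, a band with a median of -3.12. AT5G06630, under 2-fold as deposited, was 1 of 17 genes higher in trichome among 209 from 4 to 5, where the median was -1.59. AT5G19810 was 1 of 149 higher in trichome among 606 genes from 3 to 4, where the median was -0.55. AT5G26080 and AT3G54580 fell in the band from 2 to 3, mostly background, in which 3142 of 6253 genes were higher in trichome and the median was 0.01. From a mean level of 4 upward, few genes of a member's band shared its direction. The members there, AT4G08410, HRGP1, AT1G23720 and AT5G06630, are those read by _x_at probe sets, which may hold signal of one another. All members were chosen with this contrast known, so their places in the bands are a description only.

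**Figure D2:**
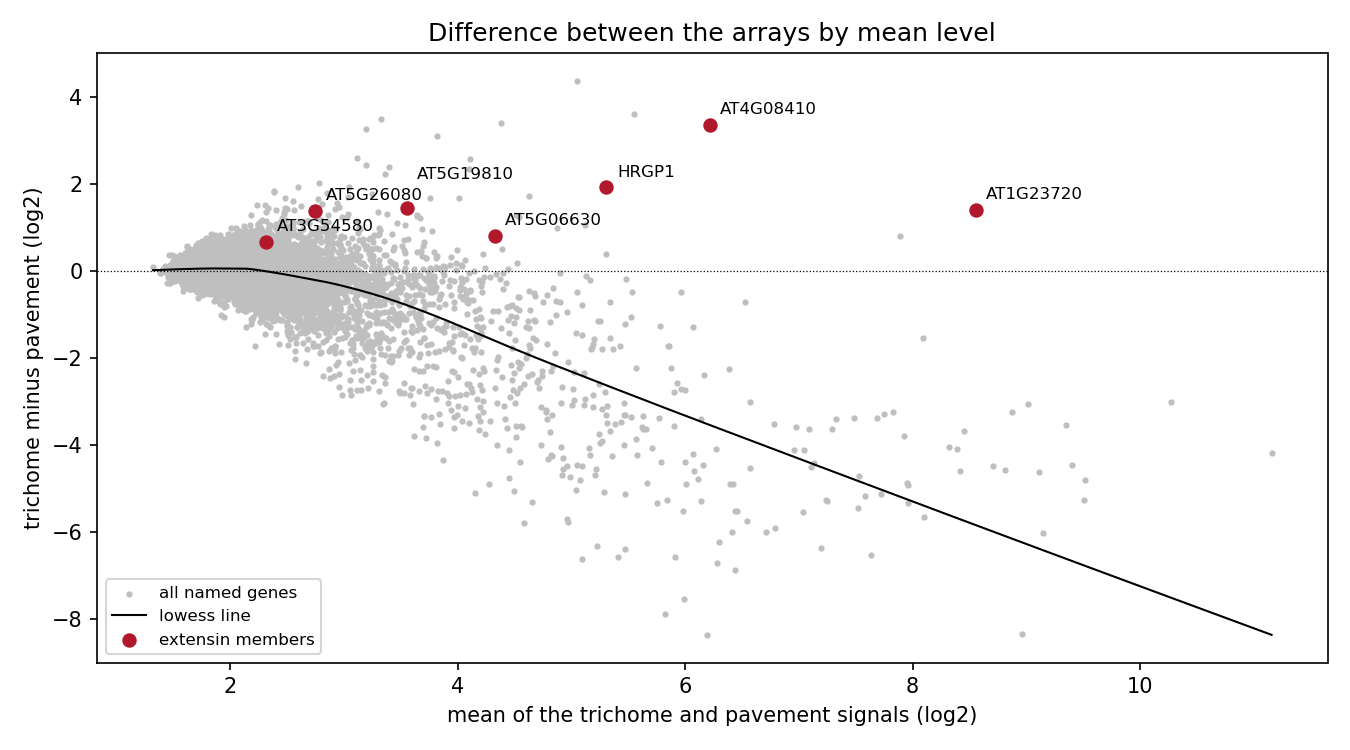
Difference between the arrays (trichome minus pavement, log2, vertical axis) against the mean of both signals (log2, horizontal axis) for 13356 named genes (grey) and the 7 extensins (red), with a lowess line over all genes; each point is 1 gene, read once per cell type. AT4G08410 at 3.36, HRGP1 at 1.91 and AT1G23720 at 1.40 stand above the zero line at levels where most genes lie below it.

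The members' direction was the same under each scaling tried, but only quantile normalization could have reversed it. The lowess line was negative at each member, and the control shift was -3.15. Those corrections could therefore only raise the differences, and raising background to the ceiling cannot reverse a sign. After a lowess correction for mean level the 7 differences ran from 0.68 to 7.24, after quantile normalization from 0.79 to 5.94, and centred on the hybridisation controls from 3.81 to 6.51. AT5G06630 passed 2-fold under each of these scalings, with 2.41 after the lowess correction and 2.90 after quantile normalization, so whether it passes 2-fold depends on the scaling. AT3G54580 stayed under 2-fold with 0.68 after the lowess correction and 0.79 after quantile normalization. At the level of AT1G23720 the lowess line was at -5.84 while the band median was -4.08, so 7.24 for that gene overstates its distance from genes of like level. At AT4G08410 the line was at -3.54 and the band median at -4.59, and at HRGP1 they were -2.63 and -3.12, so there the line lay above the median. The scalings also changed the split over all genes. With the lowess correction 269 genes were at least 2-fold higher in trichome and 335 in pavement, and with quantile normalization 374 and 346, against 97 and 679 as deposited. Centring on the controls moved the median of all named genes to 3.17, so that positive values there hold for most genes.

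**Figure D3:**
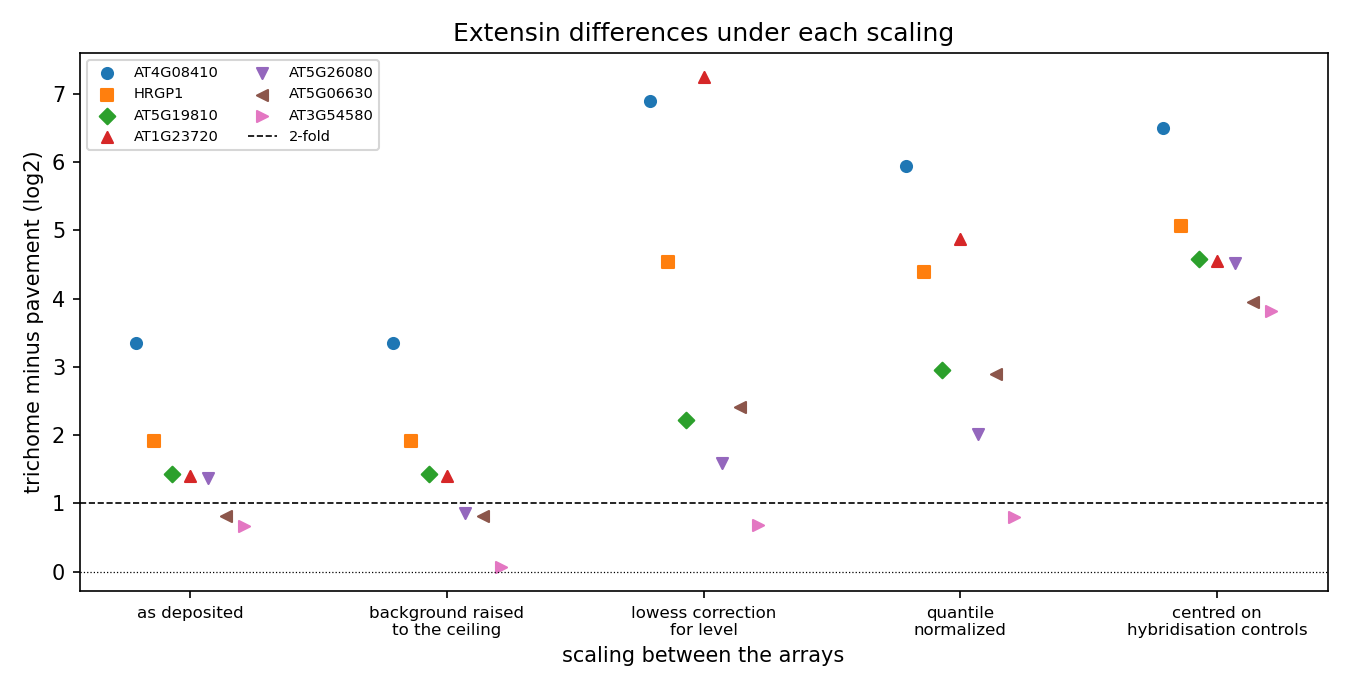
Difference of each extensin (trichome minus pavement, log2, vertical axis) under 5 ways of setting the arrays against each other (horizontal axis), with a dotted line at 0 and a dashed line at 2-fold; each symbol is 1 gene. All symbols lie above 0, and AT3G54580 lies under the 2-fold line except when the arrays are centred on the hybridisation controls.

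The other extensin family genes that were found by list or by name, and measured, were mostly at background. All 11 measured ones came from the list, and family genes under other names would have been missed. Of 40 further family genes, 19 from a list of classical extensins and the rest by the word extensin among their names, 11 had a named probe set. The word search also took in AT3G24550, a receptor kinase with extensin-like domains, so the 40 are not all extensins proper. Of the 11 measured, 2 passed the ceiling on 1 array or both. AT3G06750 read 3.03 in trichome against 3.48 in pavement and differed by -0.45, and AT4G08380 is described above. As deposited 9 of the 11 had a higher reading in trichome, beside 51.8% of all named genes, and their median difference was 0.29. Once readings under the ceiling were set to it, their median was 0 and 0 of 11 were 2-fold apart. Nothing can be said of the 9 at background beyond that bound.

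Leucine-rich repeat extensins join an extensin domain to a repeat domain that, in Arabidopsis, binds RALF signalling peptides at the wall. Of 11 listed, 8 had a named probe set, 5 of these passed the ceiling on 1 array or both, and 0 differed by 2-fold in either direction. AT4G18670 read 3.62 in trichome against 2.67 in pavement and differed by 0.95. AT4G33970 read 3.99 in trichome and 3.65 in pavement, AT3G24480 read 3.79 in trichome and 3.73 in pavement, and AT1G49490 read 2.78 in trichome and 2.08, at background, in pavement. The median difference of the 8 was 0.28 as deposited, and 0.03 once readings under the ceiling were set to it.

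Enzymes that modify extensins gave little signal. Of 13 listed genes for proline hydroxylation and extensin glycosylation 4 were measured, and only AT5G13500 was above the ceiling, at 2.89 in trichome and 2.35, at background, in pavement (at least 1.24-fold higher in trichome). XEG113, which in Arabidopsis is needed for the arabinose chains of extensins, passed the ceiling neither in trichome (1.99) nor in pavement (2.25). Of 12 listed wall peroxidases, the enzyme class that cross-links extensins, 7 were measured, of which 0 passed 2-fold in trichome and 1 passed it in pavement. PRXR1 read 2.22, at background, in trichome and 9.76 in pavement, the opposite direction to the extensins. Its mean level was 5.99, and 81 of 94 named genes from 5 to 6 were at least 2-fold higher in pavement. AT5G64120 (PRX71) read 2.41 in trichome and 2.59, just above the ceiling, in pavement.

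Of 10 listed genes of cellulose synthesis 2 were measured. AT5G06700 (TRICHOME BIREFRINGENCE), required for normal crystalline cellulose in trichomes, read 2.07, at background, in trichome against 6.83 in pavement. Its mean level was 4.45, and 137 of 209 named genes from 4 to 5 were at least 2-fold higher in pavement. COB, a protein of cellulose deposition, read 2.90 in trichome and 3.05 in pavement. Neither gene read higher in trichome. No listed PERK receptor kinase, arabinogalactan protein or proline-rich protein had a named probe set in the table used here.

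**Figure D4:**
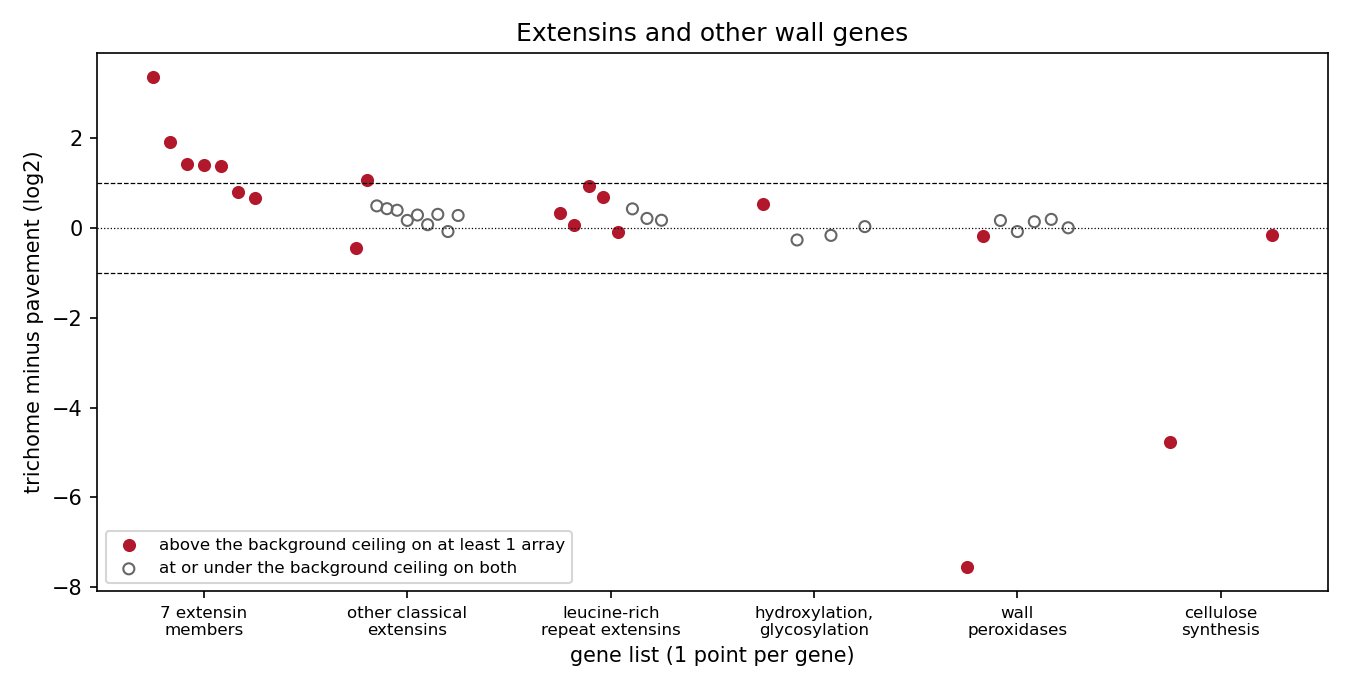
Difference (trichome minus pavement, log2, vertical axis) of the 7 extensins and of 5 lists of other wall genes (horizontal axis), 1 point per gene; filled points passed the background ceiling on 1 array or both, open points on neither, and dashed lines mark 2-fold. The 7 extensins lie between 0.67 and 3.36, and the lowest points are PRXR1 and AT5G06700, both higher in pavement.

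Markers of other leaf cells were read as well. Of 8 listed mesophyll genes 4 were measured, all higher in pavement, with readings from 3.67 to 3.97 in trichome and from 8.85 to 9.42 in pavement. Their summed log2 level was 15.3 in trichome and 36.4 in pavement, and their mean levels ran from 6.40 to 6.55. Of the 31 named genes with a mean level from 6 to 7, 29 were at least 2-fold higher in pavement. The 3 measured genes of the stomatal lineage, of 8 listed, read from 2.62 to 2.96 in trichome. In pavement they were at background, from 1.99 to 2.06, and their summed levels were 8.44 in trichome and 6.05 in pavement. Lower limits of their folds ran from only 1.02 to 1.29. Their deposited differences, 0.61 to 0.90, were under the SD of 0.95 between probe sets. The vascular gene SWEET11 passed the ceiling neither in trichome (2.08) nor in pavement (2.14). Their part in the extensin differences was not tested.

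For each member the 3 genes nearest in both readings were listed by the straight-line distance of the trichome and pavement log2 signals, a likeness over 2 arrays only. AT4G08410 was nearest to AT2G12190 (7.35 in trichome and 3.76 in pavement, a distance of 0.95), then to HRGP1 at 1.64 and AT2G38870 at 1.80. HRGP1 was nearest to AT1G22890 at 0.67, AT5G59170 at 0.90 and AT3G01890 at 0.97. AT1G23720 was nearest to the pseudogene AT3G31955 (8.29 in trichome and 7.49 in pavement) at 1.03, then to AT5G62350 at 2.19 and AT5G39570 at 3.22. Both of the last were higher in pavement, with log2 differences of -1.55 and -3.06. The readings of AT3G31955 came from a probe set ending in _s_at, a shared type, so they may hold signal of other transcripts.

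AT5G06630 was nearest to AT2G21160 at 0.24, AT5G16880 at 0.34 and LCB2 at 0.42. AT5G19810 had closer neighbours, at 0.17 to 0.22 (AT4G29440, AT2G26110 and AT4G32420). Those of AT5G26080 were AT3G55840, AT3G19440 and AT5G47490, at 0.13 to 0.16, and those of AT3G54580 were AT2G34330, AT3G22180 and AT5G50410, at 0.02 to 0.03. The pavement readings of AT5G26080 and AT3G54580 were at background, where most named genes lie, so their small distances say little of likeness.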

How the data were processed

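The authors deposited log2 signals, 1 for each probe set, and the submitters' processing notes name RMA without a version. The sources used here state neither its steps nor its log base, which was read from the values' range. The columns did not share a distribution: 3169 trichome and 4218 pavement readings passed the ceiling, so how the scale between the arrays was set is unknown. Of 22810 probe sets, the platform annotation gave 13513 a single gene and 503 several; of the 13513, 13436 matched the RefSeq table of assembly TAIR10.1, and the others kept the annotation's name. Probe sets of a gene were averaged, giving 13356 genes. The measure was trichome minus pavement, counted from a difference of 1 (2-fold) when the higher reading was at or above 2.05. Bounds used the ceiling of 2.58, set by 1 Bacillus probe set that read alike on both arrays (the next highest reading was 2.21). The RefSeq table holds no descriptions, so family genes beyond the list were found by symbol and synonym. The extensins and lists were chosen with earlier results of these data known. Named wall genes were those above the ceiling, up to 4 per list by their higher reading, and the 3 nearest genes of each member. Alternatives were lowess (span 0.3), quantile normalization, centring on controls, the ceiling, other probe sets and no filter. Counting was tested on simulated data. Python 3.11.15, pandas 2.3.3, numpy 2.4.6 and statsmodels 0.14.6 were used. The number of arrays limits the precision.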

Additional observations from a re-analysis of the deposited data

How the results depend on the processing

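The count of 5 extensins 2-fold or more higher in trichome was 4 once readings under the ceiling were set to it, 6 after the lowess correction or quantile normalization, 7 when centred on the hybridisation controls, and 2 without the probe sets marked as shared, since these hold 4 of the 7 genes. Of all 13356 named genes, 97 passed 2-fold in trichome as deposited, 43 with background raised to the ceiling and 269 after the lowess correction. After quantile normalization 374 passed, and centred on the controls 7881, so all 7 members passing there says little. Without the shared probe sets 92 of 13075 genes passed. The count of members in pavement was 0 under every alternative run, beside 86 to 681 of all named genes. The other extensin family genes 2-fold apart numbered 1 as deposited, 0 with background raised to the ceiling and 6 when centred on the controls, where all differences were raised by 3.15. No filter and the brightest probe set per gene left the counts of members and of other family genes as they were. No member's difference changed sign under the alternatives run; it moved by more than the SD of 0.95 between probe sets for 4 of 7 members with the lowess correction, 5 with quantile normalization and 7 with centring on the controls. The controls read 6.88 or more, so nothing is known of the shift at the level of the dimmer extensins. Signal over background limits AT3G54580 and AT5G26080, whose pavement readings give only bounds. No paired analysis was possible because each cell type has 1 array.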

Other observations

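The pavement reading of AT5G26080 was a value that occurred 80 times over both arrays, and the trichome readings of AT5G19810 and AT5G26080 each occurred 2 times. The other readings of the 7 members occurred 1 time each. Of 109 named genes read by 1 probe set ending in _x_at, 10 passed the background ceiling on 1 array or both. Of the 109, 3 were 2-fold or more higher in trichome as deposited, all of them extensins described above, and 2 were so in pavement. The extensins were chosen with this contrast known, so finding them among the trichome-high genes is a description only. How much signal the probe sets of these 3 extensins share was not tested, so they are not counted as separate cases.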
